A study of Lens culinaris with 50 samples.

Results

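The comparison set the embryo of lentil (Lens culinaris, ecotype CDC Gold) beside the seed coat at the heart stage of embryo development. It rests on the 2 embryo and 2 seed coat libraries whose labels give this stage, 4 of the 50 libraries of the series. The series followed embryo, seed coat and whole seed through 8 stages from zygote to mature and added the unfertilized ovule, with 2 libraries for each of 25 groups. All plants were grown alike and untreated, with 16 h of light at 22 °C and 8 h of dark at 20 °C, and flowers were emasculated and pollinated by hand. Embryos were taken out under a dissecting microscope in 4.8% sucrose with 0.1% RNAlater, and what was left of the seed after the embryo had been removed was kept as the seed coat. The sources do not say whether endosperm stayed with the seed coat, nor how many seeds were pooled for a library. Nothing in the labels says that replicates came from separate plants, so p-values measure a spread between replicate libraries that may be technical. That spread was estimated over all 25 groups of the series and not from the 4 heart libraries alone.

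At the heart stage of a dicot embryo the cotyledons emerge on either side of the shoot apex and give the embryo its outline. The embryo is a product of fertilization, whereas the seed coat grows from the integuments of the ovule and is maternal tissue. In legumes the seed coat carries the vascular supply of the seed and releases sugars and amino acids towards the embryo. The deposited table gives genes by identifier and does not pair identifiers with names or functions. Genes are therefore described by where and how strongly they were read, and no role is given to any of them.

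Depth in these 4 libraries ran from 19686048 to 35634980 reads on genes, within the range of the series (13019472 to 35634980). Levels are given as normalized reads, the authors' read counts divided by a size factor of each library, in which 1 read was worth 0.590 to 1.43 in these 4 libraries. The 2 embryo replicates correlated at a Spearman rho of 0.975 across 29440 genes and the 2 seed coat replicates at 0.986. Each heart embryo library was closer to the embryo libraries of the other 7 stages (median rho 0.905 and 0.904 over 14 libraries) than to their seed coat libraries (0.831 and 0.834). Each heart seed coat library was closer to the seed coat libraries (0.947 and 0.946) than to the embryo libraries (0.861 and 0.861). Such correlations are taken across genes and only describe how the tissue labels compare with the data. No cell type markers could be read, because genes carry no names.

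Embryo and seed coat differed widely, and more genes were called on the seed coat side. Of 29440 genes tested, 7972 differed (27.1%): the embryo was higher for 3273 (11.1%) and the seed coat for 4699 (16%). A call needed a fold of at least 2 and, in limma's moderated test, a p under 0.05 after Benjamini-Hochberg adjustment across the 29440 genes. The median fold was 4.25 among the genes higher in embryo and 6.15 among those higher in seed coat. A fold over 16 was found for 667 of the former and 1269 of the latter. Both libraries of the higher tissue stood above both of the lower in 3266 of the 3273 and 4694 of the 4699 genes. Among all tested genes 32.4% had both embryo libraries on top and 36.8% both seed coat libraries, so this separation by itself is common. In bulk tissue, fewer cells of a type and less RNA per cell cannot be told apart.

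**Figure D1:**
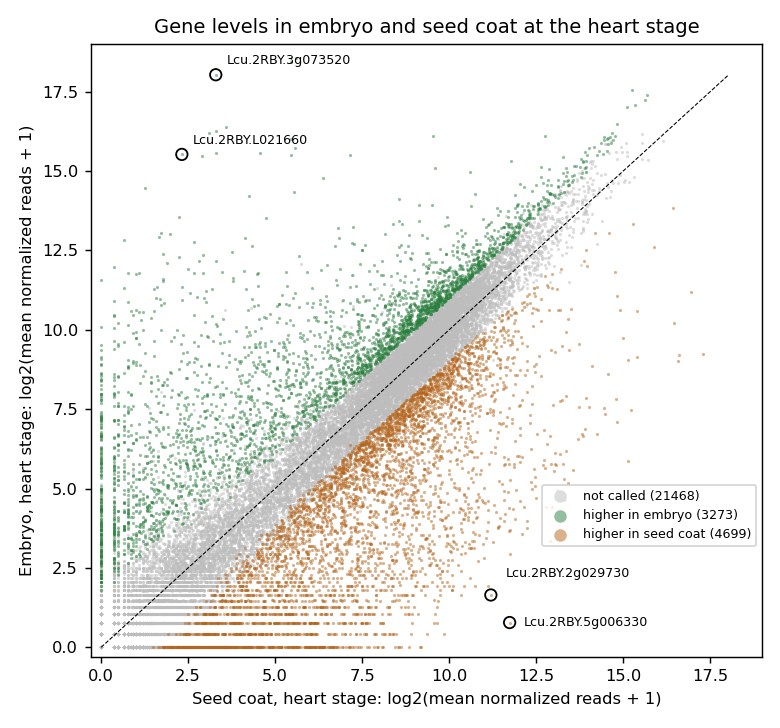
Mean level of each of 29440 tested genes in the heart stage seed coat (x axis) and embryo (y axis), as log2(mean normalized reads + 1), with 2 libraries per tissue. Green points are the 3273 genes higher in embryo, brown points the 4699 genes higher in seed coat, the dashed line marks equal levels, and circles mark the 4 genes named for the largest difference.

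The largest difference towards the embryo was that of Lcu.2RBY.3g073520. It stood at 229532 and 306046 normalized reads in the 2 embryo libraries and at 2.95 and 14.6 in the 2 seed coat libraries. The seed coat values came from 5 and 18 reads. The log2 difference was 15.04 (SE 0.92, limma adjusted p = 1.60e-13), and this gene alone took 0.921% and 1.09% of all reads of the embryo libraries. Lcu.2RBY.L021660 came next, with 34312 and 59786 in embryo against 4.72 and 3.26 in seed coat (log2 difference 13.16, SE 1.00, limma adjusted p = 1.14e-11). For both genes every embryo library stood above every seed coat library, which was a condition for naming a gene.

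These 2 embryo genes had similar courses over development. In the embryo Lcu.2RBY.3g073520 averaged 1075 normalized reads at the zygote stage, 430615 at globular, 267789 at heart and 2.51 at the mature stage. Lcu.2RBY.L021660 averaged 193 at the zygote stage, 58524 at globular, 47049 at heart and 9.26 at the mature stage. Both were thus highest at globular and heart and close to the seed coat level at maturity. Whether the 2 identifiers are near-identical copies that share reads was not tested.

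On the seed coat side the largest difference was that of Lcu.2RBY.5g006330, with 3477 and 3344 normalized reads in seed coat against 0 and 1.43 in embryo. Its log2 difference was -11.10 (SE 0.67, limma adjusted p = 4.51e-14), and with a single embryo read the ratio was 7279 with a 95% counting interval of 1306 to 287546. Lcu.2RBY.2g029730 stood at 2776 and 1916 in seed coat and at 1.40 and 2.86 in embryo, 2 reads in each embryo library (log2 difference -9.57, SE 0.84, limma adjusted p = 1.10e-10). Neither gene had overlapping groups, again a condition for naming. Both reached their highest seed coat mean at the heart stage, 3410 and 2346, after 390 and 214 at the zygote stage. By maturity Lcu.2RBY.5g006330 had dropped to 203 in seed coat and Lcu.2RBY.2g029730 to 11.5, where the embryo held 17.5 and 8.41.

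**Figure D2:**
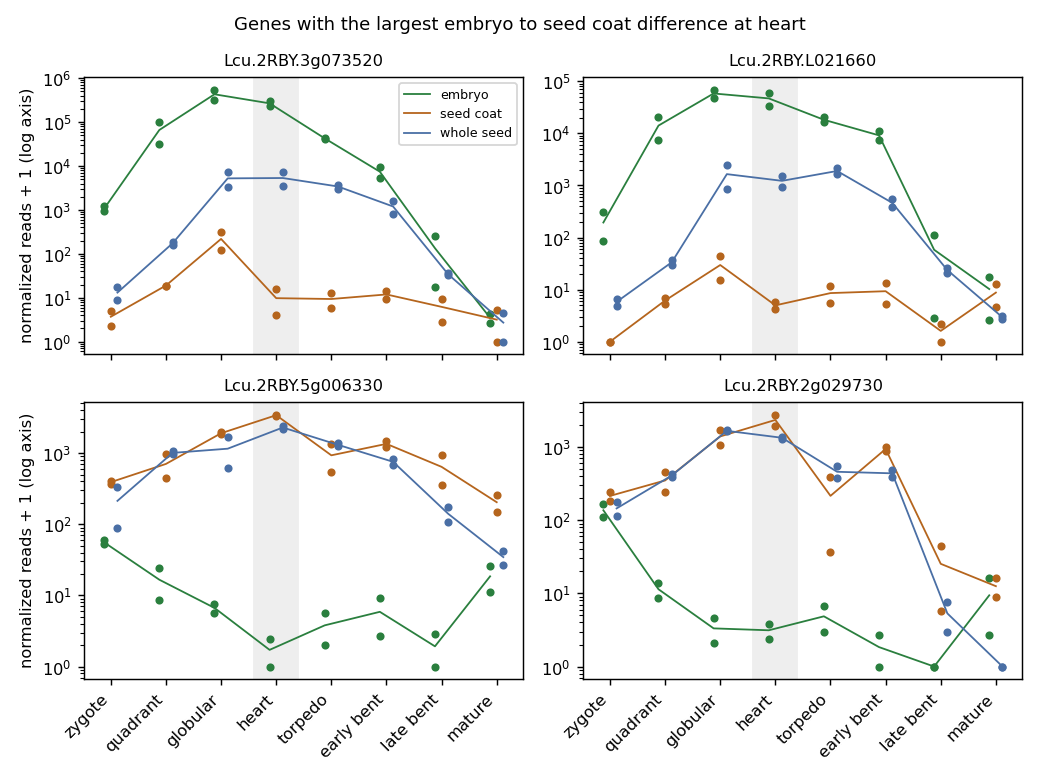
Levels of the 4 named genes, as normalized reads + 1 on a log axis, in embryo (green), seed coat (brown) and whole seed (blue) at 8 stages, with a point for each library, a line through the means of 2 libraries and the heart stage shaded. At heart the embryo stands at 229532 and 306046 for Lcu.2RBY.3g073520 and the seed coat at 3477 and 3344 for Lcu.2RBY.5g006330, while the other tissue is below 15 in each panel.

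Some strongly read genes of each tissue were nearly unread in the other. The seed coat mean of Lcu.2RBY.3g073520 was 0.00329% of the embryo mean, and the embryo mean of Lcu.2RBY.5g006330 was 0.0210% of the seed coat mean. Among the 4592 genes whose embryo mean reached 1000 normalized reads, 96 were under 1% of that level in seed coat and 50 under 0.1%. Among the 4158 genes whose seed coat mean reached 1000, 116 were under 1% of that level in embryo and 2 under 0.1%. At a level of 1000 a share of 0.1% is about 1 read, so the last pair of counts depends on depth.

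Some genes were read in only 1 of the tissues at this depth. No read was found in either seed coat library for 193 of the genes higher in embryo, and 43 of these had at least 100 normalized reads in embryo. With a floor of 3 counts per library these 43 were at least 47.6-fold to 1440-fold higher in embryo, with a median bound of 105. No read was found in either embryo library for 484 of the genes higher in seed coat, 33 of them with at least 100 in seed coat, and their bounds ran from 31.5 to 182 with a median of 51.0. The floor was 2.11 normalized reads in seed coat and 3.20 in embryo, which makes bounds on the seed coat side lower for the same level. Floors and intervals cover counting error only, since amplified reads are not independent molecules.

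Under the deposited scaling the genes higher in embryo were fewer but more strongly read. Normalized reads summed to 2.49e+07 and 2.82e+07 in the embryo libraries and to 1.90e+07 and 1.92e+07 in the seed coat libraries. Levels of the tissues thus do not share a total. For the genes higher in embryo and those higher in seed coat, medians were as follows. The genes higher in embryo had a median level of 545 normalized reads in embryo and 78.5 in seed coat. Those higher in seed coat stood at medians of 168 there and 16.0 in embryo. The genes higher in embryo made up 40.3% and 44.2% of all reads in the embryo libraries and 13.6% and 15.1% in the seed coat libraries. The genes higher in seed coat made up 21.8% and 21.1% of the seed coat reads and 2.15% and 2.02% of the embryo reads. The genes were chosen in these same libraries under the deposited scaling, so the shares are a description, and another scaling would sum other genes.

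Under the deposited scaling the balance between the tissues changed with level. Where the higher tissue had 10000 normalized reads or more (455 genes), 187 genes were called for the embryo and 49 for the seed coat. Among 5145 genes from 1000 to 10000 it was 1080 and 673, among 9953 genes from 100 to 1000 it was 1149 and 2072, among 5790 genes from 10 to 100 it was 727 and 1524, and among 8097 genes under 10 it was 130 and 381. With quantile scaling the class from 1000 to 10000 turned (684 higher in embryo, 798 in seed coat), and the class over 10000 narrowed to 77 and 64. The classes from 100 to 1000 and from 10 to 100 came to 1342 and 1664 and to 921 and 1067. The class under 10 turned as well (308 and 268). Quantile scaling forces all libraries to 1 distribution, and it moved the median log2 difference of all tested genes from -0.06 to 0.10. With TMM scaling the classes, from the highest level down, came to 181 and 51, 1021 and 688, 1099 and 2131, 723 and 1560, and 146 and 420. The change with level was thus kept under TMM scaling and largely lost under quantile scaling.

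Embryo reads were also concentrated in fewer genes. The embryo's 10 most read genes took 10.1% of its normalized reads and 1.30% of those of the seed coat. The seed coat's 10 took 4.73% of its own and 1.14% of those of the embryo. All of the embryo's 10 most read genes were called higher in embryo, and 7 of the seed coat's 10 were called higher in seed coat. Lists picked by a tissue's own level lean towards that tissue, and over all 455 genes with 10000 or more, 41.1% were called for the embryo and 10.8% for the seed coat. The lists of 100 most read genes shared 49 genes. In the embryo list 67 of the 100 were called for the embryo. In the seed coat list 28 were called for the seed coat and 22 for the embryo. Reads of a gene grow with transcript length, so these lists rank reads and not molecules.

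The whole seed at the heart stage, sampled in 2 further libraries, read mostly as seed coat. Its mean profile correlated with that of the seed coat at a Spearman rho of 0.973 and with that of the embryo at 0.881. The whole seed differed from the embryo in 9285 genes (31.5%) and from the seed coat in 535 (1.82%), of which 529 were higher in the whole seed (1.8%) and 6 lower (0.0204%). Fitted as a mixture of both tissues over 5210 genes, the embryo weight was 5.38%, with 5.79% and 4.96% in the 2 whole seed libraries. The 96 embryo genes described above as under 1% in seed coat stood in the whole seed at a median of 2.91% of their embryo level, 3.71% and 1.94% in its 2 libraries. The 116 seed coat genes under 1% in embryo stood at 77.3% of the seed coat level.

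The 529 genes higher in whole seed than in seed coat included 236 of the 3273 genes higher in embryo. Another 70 were among the 4699 genes higher in seed coat, and 223 were not called at heart. Over all tested genes the share higher in whole seed than in seed coat was 1.8%. In all, 284 of 29440 tested genes stood above both dissected tissues and 3 below both. Of the 284, 208 were not called at heart, 70 were higher in seed coat and 6 higher in embryo. The comparison with the seed coat rested on single libraries. It gave 253 genes without seed coat replicate 1, 257 without seed coat replicate 2 and 208 without whole seed replicate 1. Without whole seed replicate 2 it gave 1539, of which 564 were higher in the whole seed and the others lower. The 2 whole seed replicates differed by at least 2-fold in 18.4% of the tested genes, against 14.5% for the embryo and 11.1% for the seed coat replicates.

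The tissue differences seen at heart recurred in the libraries of other stages, most often at the stage before. Of the 3273 genes higher in embryo at heart, 2511 were also higher in embryo at globular (76.7%), and they made up 70.7% of the globular list; 12.1% of all tested genes were called in that direction there. Torpedo shared 2104 of the 3273 (64.3%, 51.9% of the torpedo list, 13.8% of all tested genes). The share was 54.7% at quadrant, 55.7% at early bent, 47.5% at late bent and 35.5% at mature, and 1112 of the 3273 recurred at zygote. In that direction 16.5%, 13.8%, 17.7%, 18.3% and 9.9% of all tested genes were called at these stages.

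The genes higher in seed coat at heart also recurred most at globular. Of the 4699 genes, 3677 were higher in seed coat at globular (78.3%, 83.5% of the globular list) and 3362 at torpedo (71.5%, 41.4% of the torpedo list), where 15% and 27.6% of all tested genes were called in that direction. At quadrant 71.3% recurred, at early bent 65.4%, at late bent 48.9%, at mature 43.8% and at zygote 31.3%. The corresponding shares of all tested genes were 20.6%, 27.7%, 23.1%, 21.9% and 8.28%. Both directions together were called in 18.2% of all tested genes at zygote, 37.1% at quadrant, 27% at globular, 41.4% at torpedo, 41.5% at early bent, 40.8% at late bent and 40.2% at mature. At the zygote stage 60.4% of the seed coat list was also called for the seed coat at heart, against 16% of all tested genes. Of the zygote embryo list 38.2% was called for the embryo at heart, against 11.1% of all tested genes.

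**Figure D3:**
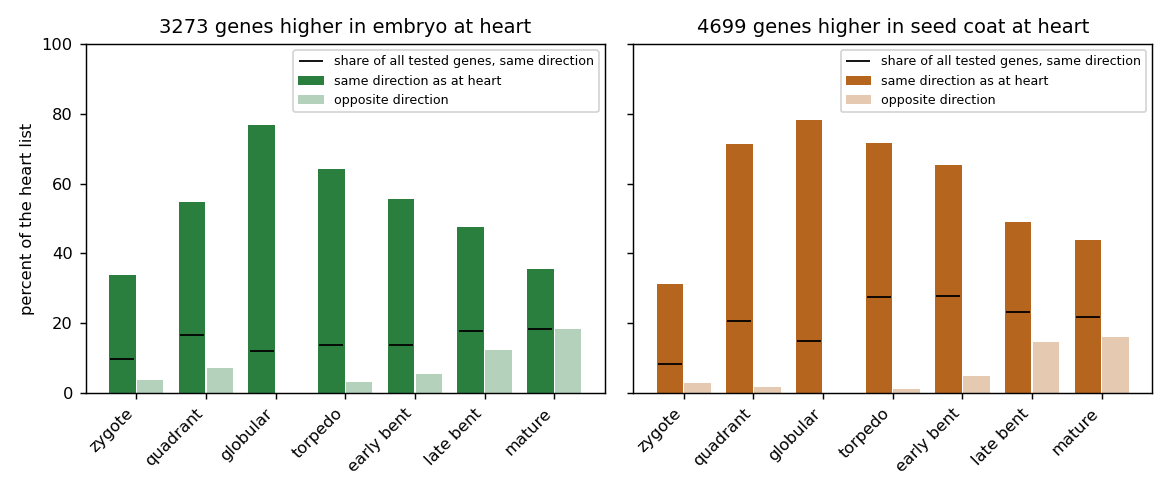
Percent of the 3273 genes higher in embryo at heart (left) and of the 4699 higher in seed coat at heart (right) that were called at each of the other 7 stages, in the same direction (dark bars) or the opposite direction (light bars), with the share of all tested genes called in the same direction as a black line. The dark bars are highest at globular, 76.7% and 78.3%, and the light bars are highest at mature, 18.3% and 16.2%.

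Reversals were fewest at globular, and they were found both before and after it. At globular 4 genes of the embryo list were higher in seed coat and 3 genes of the seed coat list higher in embryo. In those directions 15% and 12.1% of all tested genes were called there. The embryo list had 124 at zygote (3.79%), 240 at quadrant (7.33%), 107 at torpedo (3.27%), 182 at early bent (5.56%) and 407 at late bent (12.4%). Of all tested genes, 8.28%, 20.6%, 27.6%, 27.7% and 23.1% were called for the seed coat at these stages. The seed coat list had 135 at zygote (2.87%), 86 at quadrant (1.83%), 62 at torpedo (1.32%), 232 at early bent (4.94%) and 690 at late bent (14.7%). For the embryo 9.9%, 16.5%, 13.8%, 13.8% and 17.7% of all tested genes were called at these stages. At the mature stage 598 of the 3273 genes were higher in seed coat (18.3%, with 21.9% of all tested genes called in that direction) and 762 of the 4699 were higher in embryo (16.2%, with 18.3% of all tested genes). The shares at maturity were thus near the background. Over the other 7 stages together, 960 genes of the embryo list (29.3%) and 1162 of the seed coat list (24.7%) were called in the opposite direction at some stage. Of all tested genes, 54.7% were called for the seed coat and 41.4% for the embryo at some stage other than heart, so both shares lay below the background.

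The median level of the genes higher in embryo at heart went up in embryo from 231 normalized reads at zygote to 545 at heart and down to 157 at mature. In the seed coat it lay between 78.5 and 110 throughout. The genes higher in seed coat at heart changed mainly in embryo. Their median there was 76.9 at zygote, 16.0 at heart and 57.2 at late bent, while in seed coat it lay between 142 and 198. The lists were chosen at heart, so the gap at heart is widest by choice, and no test was made on these medians.

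**Figure D4:**
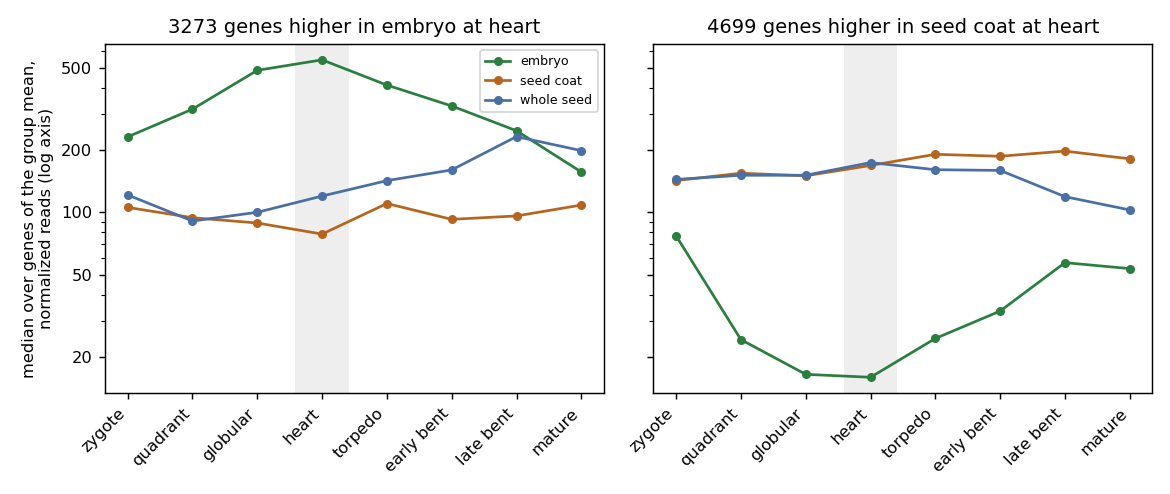
Median level of the 3273 genes higher in embryo at heart (left) and of the 4699 genes higher in seed coat at heart (right), as normalized reads on a log axis, in embryo (green), seed coat (brown) and whole seed (blue) over 8 stages, with the heart stage shaded. Each point is the median over genes of the mean of 2 libraries: the embryo line peaks at 545 on the left and is lowest at 16.0 on the right, both at heart.

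Genes that the other 7 stages had in common also held at heart. At every other stage 346 genes were higher in embryo, and at heart 308 of these were called higher in embryo, with 346 of 346 on the embryo side by sign; over all tested genes 11.1% were so called and 45.3% were on that side. At every other stage 507 genes were higher in seed coat, and at heart 488 were called higher in seed coat, with 507 of 507 on that side, against 16% and 51.9% of all tested genes. Median levels of the 346 at heart were 1396 normalized reads (embryo) and 145 (seed coat). Those of the 507 were 277 (seed coat) and 12.5 (embryo). The seed coat held a median of 25.6% of the embryo level for the 346, and the embryo a median of 4.66% of the seed coat level for the 507.

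Whether the tissue difference at heart departed from that at neighbouring stages was tested gene by gene, as a difference of differences in the same limma fit. Against the globular stage 21 genes departed (0.0713%), 9 towards the embryo at heart (0.0306%) and 12 towards the seed coat (0.0408%), and 1494 of 29440 genes had an unadjusted p under 0.05, about as many as that threshold passes when nothing differs. The count was unstable. It was 49 and 39 without embryo heart replicate 1 or 2, and 0 and 2 without seed coat heart replicate 1 or 2. It was 32 and 11 without embryo globular replicate 1 or 2, and 1 and 3 without seed coat globular replicate 1 or 2. Where limma called 0 genes, 1078 had an unadjusted p under 0.05. With all libraries edgeR called 12 and DESeq2 74. With TMM scaling 18 genes departed towards the embryo and 16 towards the seed coat. With library weights per group 294 genes departed, and 3279 had an unadjusted p under 0.05. A gene that was not called here is not shown to be alike at both stages.

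Against the torpedo stage 2556 genes departed (8.68%), 1503 towards the embryo at heart (5.11%) and 1053 towards the seed coat (3.58%). Medians of the 1503 were 49.4 normalized reads (embryo) and 18.9 (seed coat) at heart, but 14.3 and 195 at torpedo. Of these, 480 were called higher in embryo at heart, 185 higher in seed coat and 838 not at all. Medians of the 1053 were 116 (embryo) and 467 (seed coat) at heart, and 317 and 232 at torpedo. Of these, 602 were called higher in seed coat at heart, 62 higher in embryo and 389 not at all. Of all tested genes, 11.1% were called for the embryo at heart and 16% for the seed coat. The contrast holds the same heart libraries, so these counts lean towards the heart calls by construction. With quantile scaling 1263 genes departed towards the embryo and 1455 towards the seed coat.

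The torpedo seed coat libraries had fewer genes at 0 (30.3% and 19.4%) than the heart seed coat libraries (42.6% and 48.7%). Without torpedo seed coat replicate 2, the library at 19.4%, the torpedo contrast fell to 1059 genes, 571 towards the embryo and 488 towards the seed coat. Without torpedo seed coat replicate 1 it rose to 5686, with 3087 and 2599. The number was 1520 without embryo heart replicate 1, 1650 and 1490 without seed coat heart replicate 1 or 2, and 1440 without embryo torpedo replicate 1. Without the 6 libraries of the series with under 25% of genes at 0, chosen after seeing the data, it was 1123.

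Against the mean of the other 7 stages 4106 genes departed (13.9%), 2035 towards the embryo at heart (6.91%) and 2071 towards the seed coat (7.03%). Among the 2035, 1114 were called higher in embryo at heart, 90 higher in seed coat and 831 not at all. Their median in embryo was 54.0 normalized reads at quadrant, 166 at globular, 209 at heart and 32.6 at mature. In seed coat it was 45.5 at globular, 36.2 at heart and 283 at mature. Among the 2071, 1479 were called higher in seed coat at heart, 28 higher in embryo and 564 not at all. Their median in embryo was 30.4 at globular, 26.95 at heart and 234 at late bent. In seed coat it was 226 at globular, 257 at heart and 73.9 at mature. The number was 2597 and 2620 without seed coat heart replicate 1 or 2. Here too the heart libraries are part of the contrast, so the heart calls among its genes lean the same way by construction. Over all tested genes 11.1% were called for the embryo at heart and 16% for the seed coat.

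Few of the genes called at heart lacked a call at the other stages. Of the 3273 genes higher in embryo, 201 were not called in that direction at any other stage (6.14%), and 95 were called in neither direction there (2.90%). Of the 4699 genes higher in seed coat the numbers were 213 (4.53%) and 108 (2.30%). For comparison, 41.4% of all tested genes were called for the embryo at some other stage and 54.7% for the seed coat. The share of all tested genes called in neither direction there was not counted. The 201 and 213 genes were chosen for this pattern, so their levels are a description. In the 201 genes the embryo median was 333 normalized reads at heart, after 149 at globular and before 187 at torpedo, and the seed coat median was 52.3 at heart against 96.7 and 205. In the 213 genes the seed coat median was 154 at heart against 108 at globular and 103 at torpedo, and the embryo median was 58.0 against 70.1 and 88.7.

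The genes that departed most from the other 7 stages changed sides or swung widely with stage. Lcu.2RBY.5g065900 had 43.4 and 104 normalized reads in the heart embryo and 1.18 and 2.44 in the heart seed coat. At maturity its seed coat held 10300 and 7332 against 4.99 and 8.42 in embryo. The tissue difference at heart exceeded the mean of the other stages by 8.74 on the log2 scale (SE 0.94, limma adjusted p = 7.74e-08). Its heart embryo and seed coat libraries did not overlap, as the naming rule required, and the sides were exchanged at maturity. The globular means, 93.9 in embryo and 6.49 in seed coat, were on the same sides as at heart.

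Lcu.2RBY.1g004950 stood at 4147 and 444 in the heart embryo, at 4.13 and 5.70 in the heart seed coat and at 9069 and 4496 in the heart whole seed. The contrast was 8.60 (SE 1.62, limma adjusted p = 0.000364). The embryo replicates lay far apart, and both whole seed libraries were above both dissected tissues. At torpedo its seed coat libraries held 1152 and 10966, so replicates of this gene also spread at another stage.

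In the other direction, Lcu.2RBY.7g068190 had 2.80 and 0 in the heart embryo and 425 and 1169 in the heart seed coat, but 9135 and 8687 in the late bent embryo against a mean of 8.76 in its seed coat (contrast -9.94, SE 1.13, limma adjusted p = 3.86e-07). Lcu.2RBY.7g056070 had 0.700 and 0 in the heart embryo and 267 and 439 in the heart seed coat, and 1175 and 1018 in the late bent embryo against 2.45 and 1.86 (contrast -9.00, SE 1.06, limma adjusted p = 5.28e-07). Both genes were on the seed coat side at heart and on the embryo side at late bent. They were on the seed coat side at globular as well. The globular means of Lcu.2RBY.7g068190 were 2.25 in embryo and 440 in seed coat, and those of Lcu.2RBY.7g056070 were 4.49 and 141. In the heart whole seed Lcu.2RBY.7g056070 stood at 37.6 and 327, so its replicates disagreed there.

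**Figure D5:**
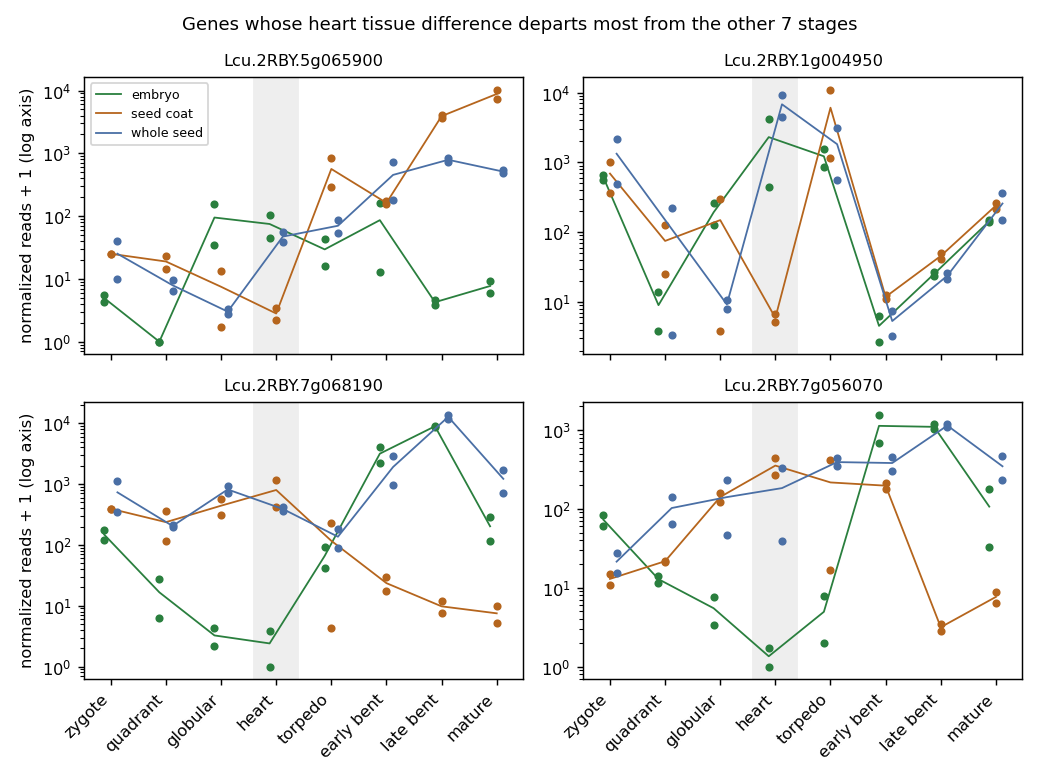
Levels of the 4 genes whose tissue difference at heart departed most from the mean of the other 7 stages, as normalized reads + 1 on a log axis, in embryo (green), seed coat (brown) and whole seed (blue), with a point for each library, a line through the means and the heart stage shaded. The seed coat of Lcu.2RBY.5g065900 goes from 1.18 and 2.44 at heart to 10300 and 7332 at mature, and the embryo of Lcu.2RBY.7g068190 from 2.80 and 0 at heart to 9135 and 8687 at late bent.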

How the data were processed

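The authors deposited a signal for every gene in every library: a gene count divided by the library's size factor. Each value was a whole multiple of the library's smallest value above 0, so whole reads were recovered for 100% of values within 0.001 reads. The factors of 50 of 50 libraries equal DESeq2's median-of-ratios factors within 1e-06%. CASAVA, Trimmomatic, featureCounts and DESeq2 appear in the submitters' processing notes. No aligner or build is given in the sources used here. Libraries were made with a low-input kit, per the labels' protocols.

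The main test was limma 3.58.1 (R 4.3.3; trend, robust) on log2(normalized reads + 1), with all 25 groups in the model and 25 residual degrees of freedom. Folds on this scale understate changes of low genes. The tested genes, 29440 of 58243, reached 10 normalized reads in 2 or more libraries. Counts were also tested with edgeR 4.0.16 and DESeq2 1.42.0 on the recovered reads. The embryo weight came from least squares over genes called at heart with at least 100 normalized reads in 1 tissue. Named genes are the 2 largest in each direction, for the heart comparison and for its contrast with the other 7 stages. They were called, had a mean of at least 100 in the highest group compared, and had no overlap between the heart groups. The groups, lists and tests were chosen with earlier results of these data known. The lists by product name written for genes and cell types could not be used. As a check for a library deposited under 2 labels, heart replicates were compared. The mean chi-square per gene was 25.1 or more, so they did not read as 1 library under 2 labels. The check cannot show that they came from separate plants, and replicates of other stages were not compared this way.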

Additional observations from a re-analysis of the deposited data

Results flagged for a closer look

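The tissue difference at heart was set against that at other stages by a test of the difference itself, in limma's fit over all 29440 tested genes. The test called 21 genes against the globular stage, 2556 against the torpedo stage and 4106 against the mean of the other 7 stages. With 1 library of the stages compared left out, the numbers for globular and torpedo ran from 0 to 49 and from 1059 to 5686. The number for the other 7 stages ran from 2597 to 3023 with 1 heart library left out. No library of those other stages was left out by itself for it. The number for globular was 3 with the replicate block and 1 with embryo and seed coat libraries alone. Against globular 1494 genes had an unadjusted p under 0.05 in the main fit, about as many as pass when nothing differs. With library weights per group it was 3279, and 294 genes were called. The settings disagreed, so a difference from globular was not established.

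The 4 genes named for their difference at heart were also called by the contrast with the other 7 stages. The difference exceeded the mean of those stages by 6.96 on the log2 scale for Lcu.2RBY.3g073520 and by 5.44 for Lcu.2RBY.L021660, both higher in embryo. For the seed coat genes Lcu.2RBY.5g006330 and Lcu.2RBY.2g029730 the contrast was -4.74 and -4.83. The other 4 genes were named for being called in this contrast, which was 8.74 for Lcu.2RBY.5g065900 and 8.60 for Lcu.2RBY.1g004950. It was -9.94 for Lcu.2RBY.7g068190 and -9.00 for Lcu.2RBY.7g056070. All 8 were chosen for large values that include the heart libraries, so the sizes are a description.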

How the results depend on the processing

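The count of 7972 genes for embryo versus seed coat at heart stayed within 1.5 times under 18 of 19 alternatives, from 6516 without embryo heart replicate 2 to 10031 with no fold required. Counting only genes that reached 100 normalized reads it was 5210 (2416 higher in embryo, 2794 in seed coat). With the replicate number within each stage as a block it was 7956 (3286 and 4670); the replicate differences of embryo and seed coat correlated at 0.07, so the numbers were not taken as pairs. The contrast with the globular stage (21 genes) was 73 with a pseudocount of 8, 8 with no filter, 34 with TMM scaling, 294 with library weights per group, 3 with the replicate block, 1 with embryo and seed coat libraries alone, 13 with at least 100 normalized reads, 47 without the 6 libraries with under 25% of genes at 0, 12 by edgeR, 74 by DESeq2, and 0 to 49 with 1 library left out. The torpedo contrast (2556) was 1123 without those 6 libraries and 1059 to 5686 with 1 left out. The contrast with the other 7 stages (4106) was 2597 to 3023 with 1 heart library left out. Whole seed versus seed coat (535) was 860 with library weights, 339 with at least 100 normalized reads, and 208 to 1539 with 1 library left out. The whole seed and seed coat replicate differences correlated at -0.24, and the block gave 572 genes with the numbers as labelled and 570 with them crossed. Beyond settings that test or count fewer genes or leave out libraries, the cause was not tested. The 8 named genes kept direction and call under every alternative run, 16 or 17 each. With only the heart libraries fitted, limma's adjusted p was 0.000167 for Lcu.2RBY.3g073520, 3.46e-05 for Lcu.2RBY.L021660, 4.98e-05 for Lcu.2RBY.5g006330 and 3.71e-05 for Lcu.2RBY.2g029730. With 2 libraries a group, small differences and low genes limit what could be called.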

Other observations

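In the order of their identifiers, genes called at heart were followed by a gene called in the same direction more often than tested genes in general. The shares over all pairs below are of pairs whose next gene was called in the direction given. Of 1937 genes higher in embryo at heart whose next identifier was also tested, 318 had a next identifier higher in embryo (16.4%, against 11.6% of all 16909 pairs), and 240 had one higher in seed coat (12.4%, against 15.7%). Of 2714 genes higher in seed coat, 557 were followed by another (20.5%, against 15.7%) and 255 by a gene higher in embryo (9.40%, against 11.6%). The longest run was 6 identifiers in embryo and 4 in seed coat. Whether neighbours are copies that share reads was not tested, and no test was made on these shares.

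The identifiers fall into 7 numbered groups and 1 group marked L. Genes higher in embryo made up 10.5% to 12.2% of the tested genes in the numbered groups and 9.42% in group L. Genes higher in seed coat made up 14.3% to 17.6% and 12.4%. No test was made on these shares.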
